A study of Mus musculus with 9 samples.

Results

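This account follows 40 interferon-stimulated and immunoproteasome genes through jejunum of mice that had 24 h of TPN, starvation or sham treatment, per the labels. The genes were named by symbol, by a rule that uses no measured value although earlier results of these data were known, and 38 of them were found among the 21868 genes of the count table. Mx1 and Mx2 were not analysed here. Of the 38 found, 26 are antiviral genes of the type I interferon response and 12 are genes of interferon gamma signalling and antigen processing, and every one of the 38 passed the filter on low counts that left 14668 genes. TPN stands for total parenteral nutrition, that is, feeding through a vein instead of the gut. Each group had 3 libraries, made from poly(A) RNA of a 5 cm jejunal segment slit along its length, so a library can hold RNA of every cell type of that segment, muscle included. The labels used here name no strain, age, sex or allele. They call the replicates biological without tying them to single mice, so the p-values describe how far these libraries differ, and that spread may be technical.

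Interferons are secreted proteins that warn cells of infection. Type I interferons (alpha, beta and relatives) bind the receptor Ifnar1/Ifnar2, and type III interferons (lambda), which act mainly on epithelia, bind Ifnlr1/Il10rb. Both switch on a transcription factor complex that contains Stat2 and Irf9 and binds the interferon-stimulated response element (ISRE) of antiviral genes. Interferon gamma, made chiefly by T and natural killer cells, binds Ifngr1/Ifngr2 and acts through the gamma-activated site (GAS). Its targets include Irf1, the immunoproteasome, whose catalytic subunits Psmb8, Psmb9 and Psmb10 replace Psmb5, Psmb6 and Psmb7, and the Tap1/Tap2 pump that carries the resulting peptides to MHC class I molecules. The programmes overlap, since type I interferon also induces antigen processing genes and interferon gamma also induces some antiviral genes. In the gut, interferons and their target genes are known for holding enteric viruses in check.

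Promoter sequence is shown because the members moved together in part and because these motifs define the programmes. The ISRE was searched as a pair of GAAA blocks with any 2 bases between them and the GAS as TTCNNNGAA, on both strands, in the 250 bases before each start in RefSeq's promoter table (GRCm38.p6), which held 34 promoters of 30 members. The ISRE was found in 8 of 22 type I promoters (36.4%) and in 2 of 12 promoters of the interferon gamma group (16.7%), against 2.98% of all 32851 promoters of that length. The GAS was found in 3 of 22 (13.6%) and 3 of 12 (25.0%), against 7.02% of all promoters. A match describes the letters of this window and is not evidence of binding. Below are the 160 bases before the start, 5′ to 3′ on the gene's strand, with motif matches in capitals: ISREs in Isg15 (chr4:156200819-156200978), Ifit1 (chr19:34640729-34640888), Ifit3 (chr19:34583369-34583528) and Socs1 (chr16:10785537-10785696), an ISRE run that overlaps a GAS in Bst2 (chr8:71537473-71537632), and a GAS in Irf1 (chr11:53769854-53770013) and Psmb8 (chr17:34198035-34198194). Tap1 (chr17:34187396-34187555), whose start lies 225 bases from that of Psmb9 on the other strand, held neither motif in this window. Isg15, Bst2 and Socs1 are on the minus strand and the other genes shown on the plus strand.
Isg15: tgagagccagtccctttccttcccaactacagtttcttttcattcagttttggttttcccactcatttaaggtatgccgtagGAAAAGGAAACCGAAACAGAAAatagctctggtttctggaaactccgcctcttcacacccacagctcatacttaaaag
Ifit1: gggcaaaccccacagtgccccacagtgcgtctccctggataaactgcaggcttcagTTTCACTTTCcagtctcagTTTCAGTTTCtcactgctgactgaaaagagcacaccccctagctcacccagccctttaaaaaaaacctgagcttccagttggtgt
Ifit3: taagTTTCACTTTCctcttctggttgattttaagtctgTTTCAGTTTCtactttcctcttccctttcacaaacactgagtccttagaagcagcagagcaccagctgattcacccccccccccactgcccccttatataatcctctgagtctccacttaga
Bst2: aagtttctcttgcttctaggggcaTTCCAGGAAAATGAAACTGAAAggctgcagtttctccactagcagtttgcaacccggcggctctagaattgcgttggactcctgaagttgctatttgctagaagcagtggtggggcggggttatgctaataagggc
Socs1: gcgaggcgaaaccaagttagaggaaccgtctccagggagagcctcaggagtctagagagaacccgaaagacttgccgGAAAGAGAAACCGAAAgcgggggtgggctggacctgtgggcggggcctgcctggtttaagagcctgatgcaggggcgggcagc
Irf1: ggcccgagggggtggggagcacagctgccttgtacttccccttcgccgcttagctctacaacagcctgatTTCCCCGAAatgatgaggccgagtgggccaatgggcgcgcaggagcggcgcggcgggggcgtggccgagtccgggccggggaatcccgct
Psmb8: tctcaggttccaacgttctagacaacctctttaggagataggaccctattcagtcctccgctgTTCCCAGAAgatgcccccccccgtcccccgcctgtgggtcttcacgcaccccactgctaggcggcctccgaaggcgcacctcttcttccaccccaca
Tap1: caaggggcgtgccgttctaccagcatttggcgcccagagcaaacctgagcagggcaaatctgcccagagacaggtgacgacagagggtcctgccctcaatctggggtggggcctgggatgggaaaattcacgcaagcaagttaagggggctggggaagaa

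The library totals ran from 7779877 to 12084278 counts, and values below are CPM, counts scaled to library size with TMM factors. Enterocyte markers were abundant throughout, with a summed level of 33505 to 40441 CPM in TPN, 31223 to 118176 in starvation and 45004 to 85125 in sham. Several libraries stood apart from their groups. Starvation replicate 3 had the highest mean level of the 6 villus tip enterocyte markers, 11.1 log2 CPM where starvation replicates 1 and 2 had 8.48 and 9.21, and the lowest of the 6 stem and cycling cell markers, 3.44 log2 CPM where those replicates had 5.58 and 5.24. Sham replicate 2 had the highest smooth muscle markers, 9.19 log2 CPM where sham replicates 1 and 3 had 6.15 and 6.32, and the second highest villus tip markers, 10.2 log2 CPM. Pancreatic acinar markers summed to 259, 12931 and 16.5 CPM in TPN, 1705, 19.3 and 23.6 CPM in starvation and 2277, 18.7 and 17.8 CPM in sham (replicates 1 to 3), so TPN replicate 2 held the most. That library also had the highest sum of the 4 genes listed for plasmacytoid dendritic cells, 1206 CPM where TPN replicates 1 and 3 had 125 and 107. The next highest sums, 211 CPM in sham replicate 1 and 192 CPM in starvation replicate 1, were also in libraries with high acinar markers. A sum over so few genes can be carried by 1 of them, so it is not read as a level of those cells. Counts of called genes are given below also with libraries left out, and the part played by the marked cells was not tested.

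The first comparison, of TPN with sham, asks what interferon target genes do when nutrients arrive by vein. In TPN, 14 of the 38 genes fell and 0 rose by edgeR's quasi-likelihood test at an adjusted p under 0.05 over all genes, while 5.12% of all genes tested fell and 3.48% rose. The genes that did not fall include 0 with an unadjusted p under 0.05 for a rise, and DESeq2 and limma voom called 0 rises too. The 14 were 7 of 26 type I genes and 7 of 12 interferon gamma genes. All 3 TPN libraries lay below all 3 sham libraries in 29 genes, 20 of the type I and 9 of the interferon gamma group, and above them in 0, against 21.4% and 21.3% of all genes. The median log2 fold change was -0.80 over the type I genes and -0.86 over the interferon gamma genes, with -0.02 over all genes tested. In bulk tissue, fewer cells of a type and less RNA per cell cannot be told apart. The count of 14 was 28 without starvation replicate 3 (11.4% of all genes fell in that fit), 8 without starvation replicate 2 (2.89%), 7, 6 and 4 without sham replicates 1, 2 and 3 (2.31%, 3.996% and 1.69%), and 2 without any single TPN library (0.836% to 0.891%). In each of these fits the members' count moved in the same direction as the share of all genes. With sham replicate 2 and starvation replicate 3 both left out it was 28, of 18 type I and 10 interferon gamma genes, where 14.8% of all genes fell.

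**Figure D1:**
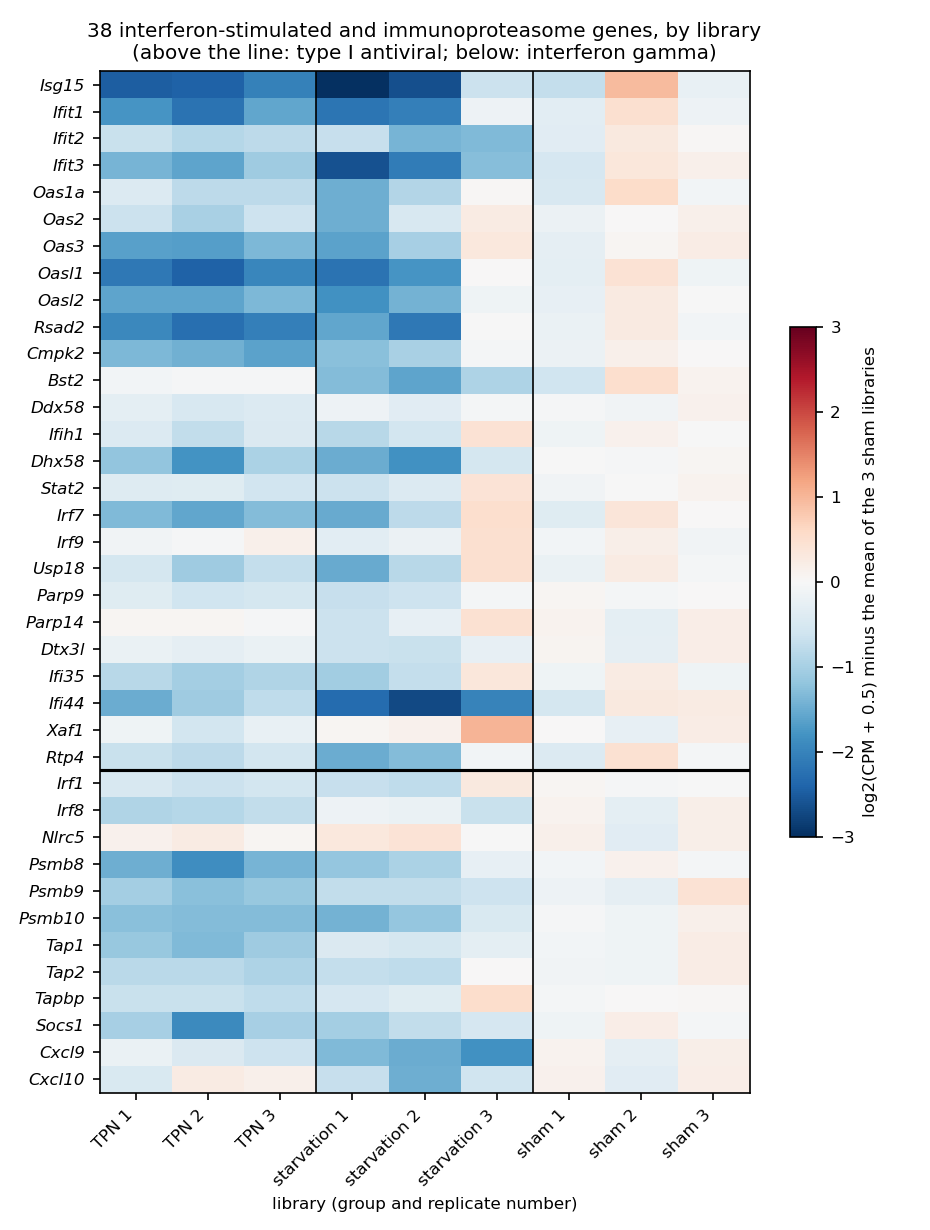
Level of each of the 38 genes (rows) in the 9 libraries (columns, TPN, then starvation, then sham) as log2(CPM + 0.5) minus the mean of the 3 sham libraries; blue is lower and red is higher than that mean, and the black line separates 26 type I genes from 12 interferon gamma genes. The TPN columns are mostly blue and alike, whereas starvation replicate 3 is paler or red where starvation replicates 1 and 2 are blue.

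Among the antiviral effectors, the steepest fall in TPN was that of Isg15, a ubiquitin-like protein that is attached to other proteins (chr4:156199424-156200818 on GRCm38, minus strand). Isg15 stood at 26.8, 27.6 and 36.6 CPM in TPN, against 91.1, 291 and 129 CPM in sham, a log2 fold change of -2.49 ± 0.67 (SE, adjusted p = 0.0493). The groups were well apart, but the 3 sham libraries differed among themselves more than the 3 TPN libraries did. Oasl1, a relative of the oligoadenylate synthetases that in mice restrains the making of Irf7, fell by 2.21 ± 0.52 (log2 fold change, adjusted p = 0.0343), with 43.1, 35.3 and 48.7 CPM in TPN against 155, 257 and 176 CPM in sham. Rsad2 (viperin), a radical SAM enzyme that limits the growth of many viruses, had 15.0, 11.7 and 13.7 CPM in TPN against 51.0, 70.5 and 55.1 CPM in sham, a log2 fold change of -2.13 ± 0.48 (adjusted p = 0.0287). Its neighbour on chromosome 12, the nucleotide kinase gene Cmpk2, whose start lies 12762 bases away, had 46.4, 43.7 and 38.9 CPM in TPN against 105, 132 and 120.1 CPM in sham, a log2 fold change of -1.47 ± 0.28 (adjusted p = 0.0146). In these 3 genes too, no TPN library reached the lowest sham library.

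The other type I genes that fell in TPN belong to families that respond to foreign RNA. Oas3, an oligoadenylate synthetase, of the family that answers to double-stranded RNA by activating RNase L, stood at 36.0, 35.5 and 43.5 CPM in TPN against 92.2, 116 and 129.9 CPM in sham (log2 fold change -1.56 ± 0.42, adjusted p = 0.0492). Oasl2, of the same family, stood at 85.8, 86.6 and 102 CPM in TPN against 218, 312 and 256 CPM in sham (log2 fold change -1.52 ± 0.38, adjusted p = 0.0420). Ifit3, of the family that binds viral RNA ends, stood at 42.9, 37.6 and 53.5 CPM in TPN against 80.2, 143 and 126 CPM in sham (log2 fold change -1.38 ± 0.34, adjusted p = 0.0383). Every TPN library was below every sham library in all of these. Ifit1, which recognises RNA caps, had 112, 82.4 and 130.3 CPM in TPN against 311, 536 and 345 CPM in sham, and its log2 fold change of -1.87 ± 0.52 missed the threshold (adjusted p = 0.0549). Reads of Ifit3 may be shared with the near-identical Ifit3b, and reads of Ifit1 with Ifit1bl1, since how reads that fit several places were counted is not given in the sources used here.

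**Figure D2:**
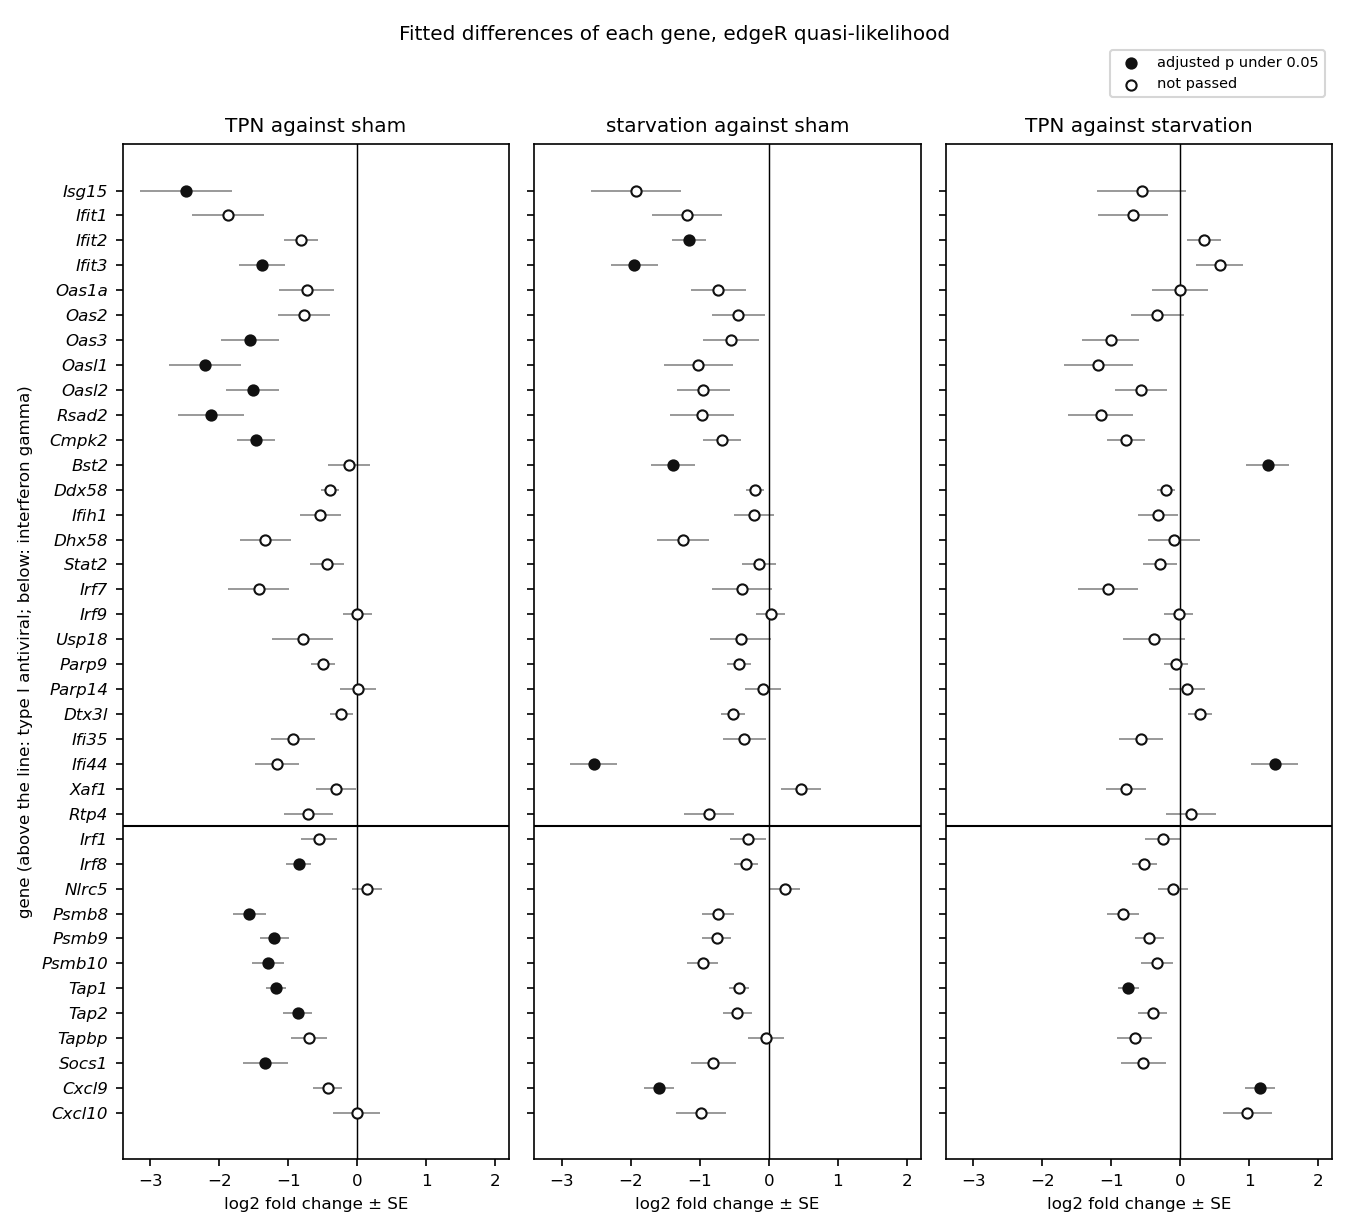
Fitted log2 fold change ± SE of each gene (x axis) in TPN against sham, starvation against sham and TPN against starvation; filled circles have an adjusted p under 0.05 and open circles do not. In TPN against sham 14 circles are filled, all left of 0, with 5 filled in starvation against sham and 4 in TPN against starvation.

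Sensors and transcription factors of the type I programme did not pass the test in TPN. The RNA sensors Ddx58 (RIG-I), Ifih1 (MDA5) and Dhx58 (LGP2) had log2 fold changes of -0.40, -0.53 and -1.33 (adjusted p = 0.0859, 0.271 and 0.0586). Irf7, the factor that amplifies interferon alpha production, had 108, 91.4 and 109 CPM in TPN against 210.4, 347 and 274 CPM in sham (log2 fold change -1.43 ± 0.44, adjusted p = 0.0728). The level of Irf9, part of the factor that binds the ISRE, overlapped between the groups with a log2 fold change of 0.00 ± 0.21 (adjusted p = 1.00). Thus members of one programme were spread over a wide range, with the TPN and sham libraries apart for Irf7 and intermingled for Irf9. Usp18, which strips Isg15 from proteins and damps the type I receptor, had 15.6, 10.6 and 13.7 CPM in TPN against 20.01, 27.2 and 21.98 CPM in sham (log2 fold change -0.79 ± 0.44, adjusted p = 0.284). The ADP-ribosylation genes Parp9, Parp14 and Dtx3l had log2 fold changes of -0.49, 0.01 and -0.23, and the best expressed of them, Parp14, had 195, 193 and 181 CPM in TPN against 199, 151 and 213 CPM in sham. Ifi35, an interferon-induced leucine zipper protein, had 94.2, 82.2 and 89.0 CPM in TPN against 152, 199 and 154 CPM in sham (log2 fold change -0.93 ± 0.32, adjusted p = 0.0991). Over all 24 genes that did not pass, log2 fold changes ran from -1.87 (Ifit1) to 0.14 (Nlrc5), 21 of them below 0, and 9 had an unadjusted p under 0.05.

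All 3 immunoproteasome subunits fell in TPN, together with both chains of the peptide pump. Psmb8 (chr17:34197721-34201454, plus strand) had 50.3, 38.5 and 53.5 CPM in TPN against 132, 154 and 136 CPM in sham, a log2 fold change of -1.57 ± 0.24 (adjusted p = 0.00698), which is a 2.96-fold lower level. Psmb9 (chr17:34181987-34187764, minus strand) had 11.9, 10.1 and 11.1 CPM in TPN against 22.3, 20.6 and 33.6 CPM in sham (-1.20 ± 0.21 on the log2 scale, adjusted p = 0.0120). Psmb10 (chr8:105935735-105938444, minus strand) had 76.2, 73.6 and 73.5 CPM in TPN against 179, 168 and 202 CPM in sham (-1.30 ± 0.23 on the log2 scale, adjusted p = 0.0119). For each subunit the 3 TPN libraries were close together and all below the sham libraries. Tap1 (chr17:34187553-34197225, plus strand) had 49.98, 44.1 and 52.7 CPM in TPN against 104, 100.1 and 129 CPM in sham, a log2 fold change of -1.18 ± 0.15 and the smallest adjusted p of the members (0.00313). Tap2 (chr17:34203527-34216321, plus strand) had 42.6, 42.6 and 39.4 CPM in TPN against 69.5, 69.0 and 88.0 CPM in sham (-0.86 ± 0.21 on the log2 scale, adjusted p = 0.0388). Psmb8, Psmb9, Tap1 and Tap2 lie side by side in the MHC region of chromosome 17, and the annotated Psmb9 and Tap1 genes overlap at their starts on opposite strands, so reads there may not be separable. Psmb8 and Tap1 kept the call in 9 of 9 fits that left out 1 library and in all 13 other alternatives, whereas each of the other 12 genes lost it when any single TPN library was left out.

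**Figure D3:**
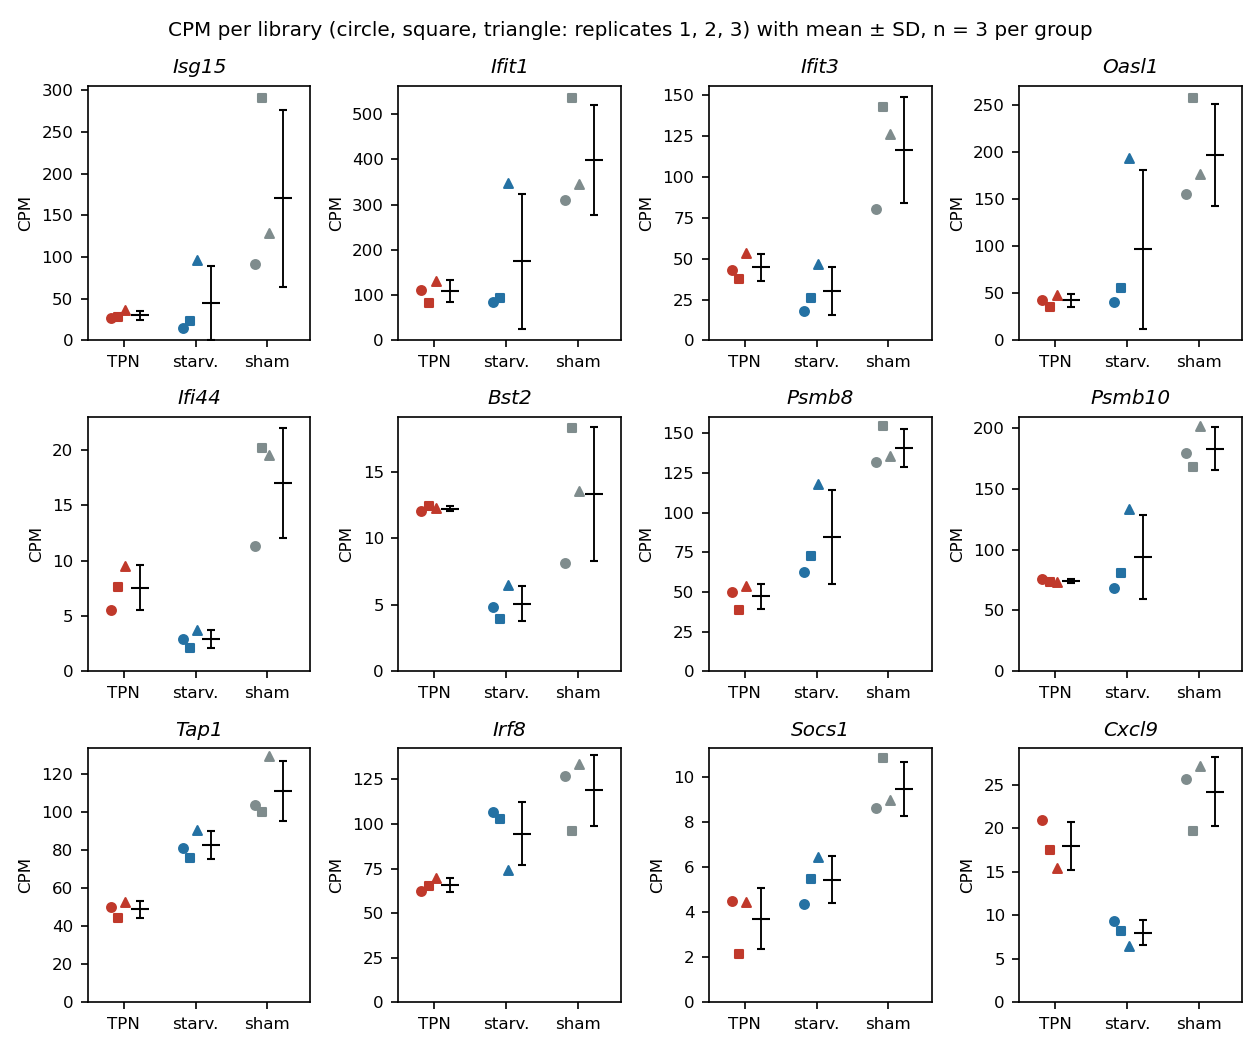
CPM of 12 genes in each library, with TPN, starvation and sham from left to right in every panel, circles, squares and triangles for replicates 1, 2 and 3, and mean ± SD (n = 3) beside the points. Psmb8, Psmb10 and Tap1 show tight TPN points below all sham points, and starvation replicate 3 (blue triangle) is the top starvation point in 10 of the 12 panels, all but Irf8 and Cxcl9.

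Of the remaining interferon gamma genes, Irf8 and Socs1 fell in TPN. Irf8, a transcription factor of B cells, macrophages and dendritic cells, had 62.5, 65.2 and 69.9 CPM in TPN against 127, 96.1 and 133 CPM in sham (log2 fold change -0.85 ± 0.18, adjusted p = 0.0228). Socs1, which shuts down Jak kinases after interferon signalling, had 4.53, 2.14 and 4.48 CPM in TPN against 8.63, 10.9 and 8.99 CPM in sham (log2 fold change -1.34 ± 0.33, adjusted p = 0.0381). Both genes separated the groups without overlap. No marker of macrophages and dendritic cells (13 tested), of B and plasma cells (9) or of T cells (13) passed the test in TPN against sham. Summed levels of the macrophage and dendritic cell markers were 455 to 490.5 CPM in TPN and 412 to 590.1 CPM in sham. Those of the B and plasma cell markers were 1590.3 to 1923 CPM in TPN and 1114 to 2031 CPM in sham, and those of the T cell markers 238 to 276 CPM in TPN and 274 to 414 CPM in sham. A mean of log2 CPM, in which each gene counts alike, gave another order. For T cells it was 3.27 to 3.40 in TPN and 3.17 to 3.21 in sham. For B and plasma cells it was 2.06 to 4.46 and 1.18 to 2.78, and for macrophages and dendritic cells 3.90 to 3.99 and 3.72 to 3.94. Other marker lists did move in TPN. Of the enterocyte markers 3 of 9 fell, and of the fibroblast markers 3 of 6 fell, the collagens Col1a1, Col1a2 and Col3a1, with a summed fibroblast level of 183 to 250 CPM in TPN and 364 to 962 CPM in sham. Of 4 neutrophil markers tested 1 rose, Cxcr2, with a summed level of 12.15 to 13.3 CPM in TPN and 2.83 to 4.90 CPM in sham. The part of these cells in the members' calls was not tested. Tapbp (tapasin), the bridge between the pump and MHC class I, had 387, 387 and 360.1 CPM in TPN against 594, 618 and 635 CPM in sham without passing (log2 fold change -0.70 ± 0.26, adjusted p = 0.119). Irf1, a factor induced early by interferon gamma, had 155, 137 and 148 CPM in TPN against 223, 209 and 215 CPM in sham and did not pass either (log2 fold change -0.55 ± 0.26, adjusted p = 0.205). Nlrc5, the coactivator of MHC class I genes, and the chemokine Cxcl10 had log2 fold changes of 0.14 and -0.01 with overlapping groups.

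The balance of immunoproteasome to constitutive subunits was compared per kilobase of annotated exon, over the union of each gene's transcripts. The ratio of Psmb8 to its constitutive counterpart Psmb5 was 0.489, 0.423 and 0.539 in TPN, 0.707, 0.935 and 1.03 in starvation and 1.08, 0.928 and 1.13 in sham. TPN libraries were thus below both other groups without overlap, and starvation overlapped sham. The ratio of Psmb10 to Psmb7 was 6.80, 6.33 and 8.50 in TPN, 5.74, 5.74 and 11.2 in starvation and 23.4, 25.9 and 22.3 in sham, with both treated groups below every sham library and starvation replicate 3 the highest treated one. Psmb7 itself had log2 fold changes of 0.44 in TPN and 0.71 in starvation against sham (adjusted p = 0.178 and 0.0743), opposite in sign to Psmb10. The ratio of Psmb9 to Psmb6 averaged 0.180 ± 0.012 in TPN, 0.201 ± 0.038 in starvation and 0.231 ± 0.092 in sham (SD, n = 3 each), with all groups overlapping, and Psmb6 fell in TPN (log2 fold change -0.90, adjusted p = 0.0302). The subunits therefore did not shift alike against their counterparts, and these ratios, each over 3 libraries per group, are given as a description without a test.

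**Figure D4:**
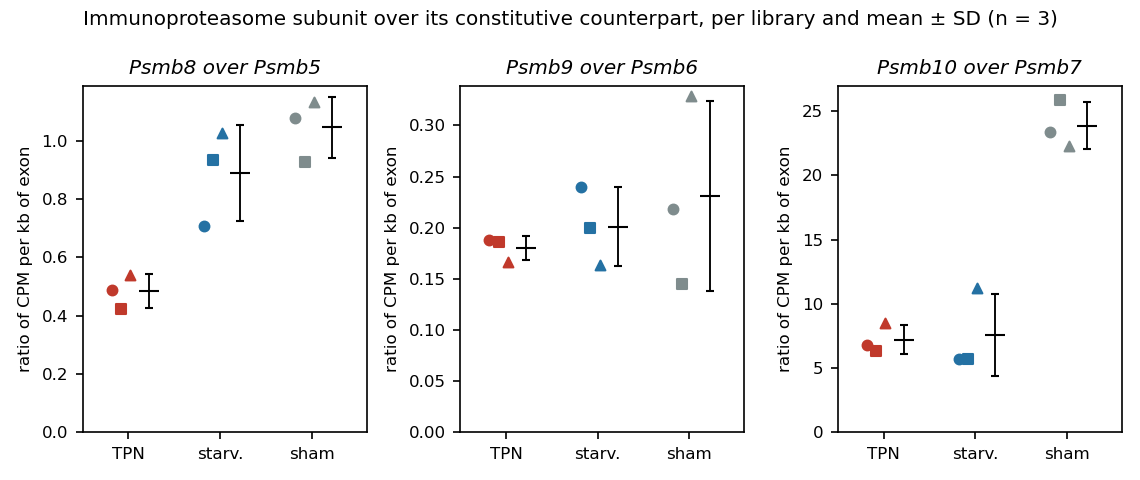
Ratio of each immunoproteasome subunit to its constitutive counterpart (CPM per kilobase of exon, y axis) per library, with mean ± SD (n = 3), for TPN, starvation and sham from left to right. Psmb8 over Psmb5 is lowest in TPN, Psmb10 over Psmb7 is 5.74 to 11.2 in the treated libraries and 22.3 to 25.9 in sham, and Psmb9 over Psmb6 overlaps between groups.

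The comparison of starvation with sham asks how the same genes behave when food is withheld altogether. In starvation, 5 of the 38 genes fell and 0 rose, while 1.14% of all genes tested fell and 2.55% rose. No rise had an unadjusted p under 0.05, and DESeq2 and limma voom called 0. Of the Paneth cell markers 3 of 6 fell too, with a summed level of 507 to 1879 CPM in starvation and 3027 to 3434 CPM in sham, and of the fibroblast markers 2 of 6 fell, with 137 to 263 CPM in starvation and 364 to 962 CPM in sham, and their part in the result was not tested. The members that fell were the type I genes Ifit2, Ifit3, Bst2 and Ifi44 and the chemokine Cxcl9. All starvation libraries lay below all sham libraries in 13 genes, 6 of the type I and 7 of the interferon gamma group, and above them in 0, against 11.2% and 13.9% of all genes. The medians were -0.61 over type I genes and -0.60 over interferon gamma genes. Left out singly, starvation replicate 3 took the count of members that fell to 27, in a fit where 5.35% of all genes fell. TPN replicates 1 and 2 and sham replicate 2 took it to 2, TPN replicate 3 to 3, and starvation replicate 2 and sham replicate 3 to 0, in fits where 0.0669% to 0.663% of all genes fell. With sham replicate 2 and starvation replicate 3 both left out, 31 genes fell, 22 of the type I and 9 of the interferon gamma group, where 9.0% of all genes fell.

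Ifi44, an antiviral protein of unsettled mechanism, had the steepest fall in starvation, with 2.95, 2.11 and 3.70 CPM against 11.3, 20.1 and 19.6 CPM in sham (log2 fold change -2.54 ± 0.34, adjusted p = 0.0105). Cxcl9, which draws Cxcr3-bearing T cells, had 9.33, 8.23 and 6.47 CPM in starvation against 25.7, 19.7 and 27.1 CPM in sham (log2 fold change -1.59 ± 0.22, adjusted p = 0.0105). Both genes were lower in each starvation library than in every sham library, starvation replicate 3 included. Ifit3 had 18.2, 25.8 and 46.7 CPM in starvation against the sham values above (log2 fold change -1.95 ± 0.34, adjusted p = 0.0244). Ifit2, which like Ifit3 binds RNA, had 15.1, 9.07 and 9.48 CPM in starvation against 19.4, 30.4 and 25.3 CPM in sham (log2 fold change -1.15 ± 0.25, adjusted p = 0.0396). Bst2 (tetherin), which ties budding virus to the cell surface, had 4.86, 3.90 and 6.47 CPM in starvation against 8.14, 18.2 and 13.6 CPM in sham (log2 fold change -1.39 ± 0.32, adjusted p = 0.0462). In all 5, starvation replicate 3 was below every sham library. When the starvation and sham libraries were fitted without the TPN libraries, 0 of 14220 genes fell and 2 rose, so these 5 lost the call along with every other gene that had fallen.

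The starvation group was the least uniform for type I genes. Starvation replicate 3 held the highest of the 3 starvation values in 25 of 26 type I genes, Ifit2 being the exception, at a median of 2.23-fold the mean of replicates 1 and 2. The same held in 9 of 12 interferon gamma genes, at a median of 1.35-fold. Over all genes tested, the median log2 difference between starvation replicate 3 and the other starvation libraries was -0.08. The scaling holds that median near 0, so it is no background for the members. How many of all genes were highest in that library was not counted, so the 25 of 26 and 9 of 12 have no background share beside them. Isg15 shows the pattern, with 15.5 and 23.7 CPM in starvation replicates 1 and 2, 95.8 CPM in replicate 3 and 91.1 to 291 CPM in sham. Irf7 had 95.0 and 156 CPM in replicates 1 and 2 and 385 CPM in replicate 3, above the highest sham library at 347 CPM. Replicates 1 and 2 were both below all sham libraries in 24 type I and 10 interferon gamma genes, whereas replicate 3 was above all sham libraries in 10 and 2. These counts too were made for the members only and have no share of all genes beside them, so they are not read as particular to the members. The median coefficient of variation of the type I genes was 11.0% in TPN, 51.7% in starvation and 17.1% in sham, and that of the interferon gamma genes 7.78%, 25.6% and 14.3%. It was not computed over all genes. Starvation replicate 3 also stood apart across the count table, with a chi-square per gene of 118 and 63.8 against replicates 1 and 2. Between replicates 1 and 2 it was 17.9. The villus tip markers given above had their highest value in the same library, with a summed level of 14112 to 73790 CPM in starvation and 23926 to 57266 CPM in sham. With their mean level as a covariate, added after seeing these values, 23 members fell in starvation, in a fit where 7.74% of all genes fell.

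Among the immunoproteasome and peptide pump genes, none passed the test in starvation against sham. Psmb8 had 62.7, 72.7 and 118 CPM, Psmb10 68.2, 81.1 and 133 CPM and Tap1 81.0, 75.9 and 90.4 CPM in starvation, each below all sham libraries. Their log2 fold changes were -0.74 ± 0.23, -0.96 ± 0.23 and -0.43 ± 0.15 (adjusted p = 0.109, 0.0516 and 0.125). Tapbp, at 435, 477 and 884 CPM in starvation, overlapped sham with a log2 fold change of -0.04. Irf8 had 107 and 103 CPM in starvation replicates 1 and 2 and 74.1 CPM in replicate 3. Irf8 was thus one of 3 interferon gamma genes that were not highest in replicate 3, beside Nlrc5 and Cxcl9. Within starvation, the 9 B and plasma cell markers moved the same way. Their mean level was 5.44 and 5.19 log2 CPM in replicates 1 and 2 and 0.80 in replicate 3, where Pax5 had no read. The macrophage and dendritic cell markers had 3.68, 4.01 and 2.89 log2 CPM. In the other groups the B and plasma cell markers did not follow Irf8. They had 2.06, 3.83 and 4.46 log2 CPM in TPN, where Irf8 was lower, and 2.78, 1.18 and 2.27 in sham, where it was higher. The part of these cells in the Irf8 values was not tested. Over the 33 genes that did not pass, log2 fold changes ran from -1.92 (Isg15) to 0.47 (Xaf1), and 14 had an unadjusted p under 0.05.

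TPN was compared directly with starvation, a contrast in which the sham libraries enter only through the shared filter, scaling and estimate of the spread. In TPN, 3 of the 38 genes were higher and 1 was lower than in starvation, against 1.94% and 3.90% of all genes tested. Groups did not overlap in 4 genes that were higher in TPN and 8 that were lower, against 15.3% and 18.3% of all genes, so the pooled counts are near the background. The 2 lists differed in this. Of the 26 type I genes, 2 were higher and 2 lower without overlap. Of the 12 interferon gamma genes, 2 were higher and 6 lower without overlap, the latter a larger share than among all genes. Bst2 had 12.02, 12.4 and 12.2 CPM in TPN against 4.86, 3.90 and 6.47 CPM in starvation (log2 fold change 1.27 ± 0.32, adjusted p = 0.0475). Ifi44 had 5.52, 7.62 and 9.52 CPM in TPN against 2.95, 2.11 and 3.70 CPM in starvation (1.37 ± 0.34 on the log2 scale, adjusted p = 0.0463). Cxcl9 had 20.9, 17.5 and 15.4 CPM in TPN against 9.33, 8.23 and 6.47 CPM in starvation (1.16 ± 0.22 on the log2 scale, adjusted p = 0.0175). These genes are all among the 5 that fell in starvation against sham, and in TPN against sham none of them passed, with log2 fold changes of -0.12, -1.17 and -0.43. Tap1 was lower in TPN than in starvation, at 49.98, 44.1 and 52.7 CPM against 81.0, 75.9 and 90.4 CPM (log2 fold change -0.75 ± 0.15, adjusted p = 0.0199). Psmb8 had non-overlapping groups and a log2 fold change of -0.83 ± 0.24 that did not pass (adjusted p = 0.0722). Left out singly, each TPN library and starvation replicate 2 took the count of higher members to 0 (0.288% to 0.957% of all genes were higher in those fits), and starvation replicate 1 and sham replicate 3 to 1 (1.70% and 1.14%). The count of lower members was 0 without any single TPN library (0.543% to 0.744% of all genes), 5 without starvation replicate 1 (5.57%) and 2 without starvation replicate 3 (3.97%). With sham replicate 2 and starvation replicate 3 both left out, 8 members were higher and 3 lower, where 10.1% and 11.5% of all genes were. Of the Paneth cell markers 4 of 6 were higher in TPN than in starvation, of the neutrophil markers 2 of 4 were higher, and of the enterocyte markers 3 of 9 were lower.

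The type I and interferon gamma groups can be set side by side within each library. After centring each gene on its mean over the 9 libraries, the mean log2 level of the type I genes minus that of the interferon gamma genes was -0.01, -0.08 and 0.04 in TPN, so that both groups were about equally below their means there. In starvation it was -0.50, -0.27 and 0.40, and in sham -0.09, 0.48 and 0.03. Starvation libraries thus fell on both sides, with type I genes the lower group in replicates 1 and 2 and the higher in replicate 3. The values of 0.48 and 0.40 belonged to sham replicate 2 and starvation replicate 3, which had the highest villus tip markers. Per kilobase of exon, mean levels over 3 libraries in sham ran from 1.31 CPM per kb (Nlrc5) to 225 (Isg15), with Tapbp at 169.7, Ifit1 at 149.6 and Psmb10 at 107. In TPN Tapbp was the most abundant at 104 CPM per kb, ahead of Ifi35 at 51.2 and Psmb10 at 43.7, and Isg15 stood at 40.1.

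**Figure D5:**
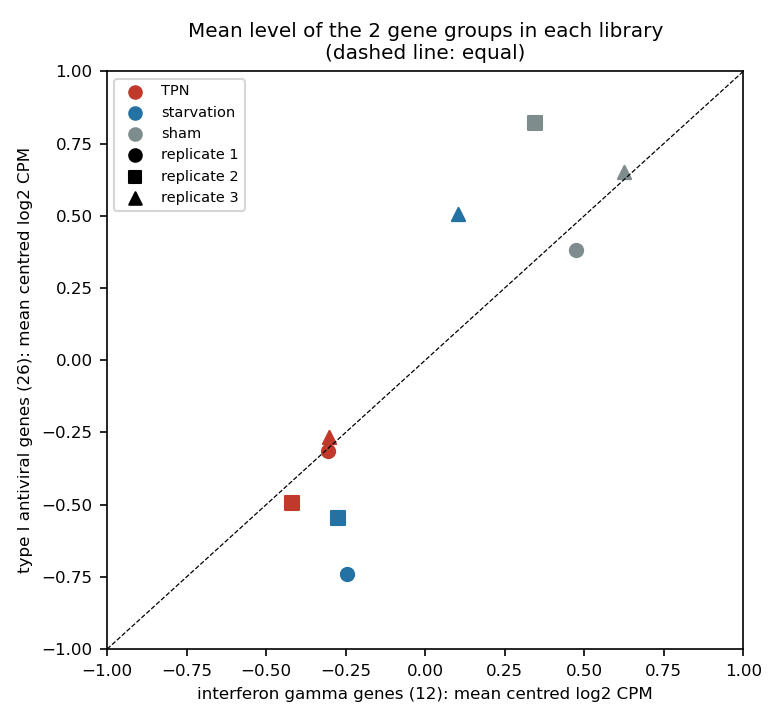
Mean centred log2 CPM of the 26 type I genes (y axis) against that of the 12 interferon gamma genes (x axis), 1 point per library, colour for group, shape for replicate, and a dashed line of equality. The 3 TPN points lie together on the line at the low end, starvation replicates 1 and 2 lie below it, and starvation replicate 3 and sham replicate 2 lie above it.

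Interferon transcripts themselves were scarce. Of 21 interferon ligand genes, 15 had no read in any library, Ifnb1 and all listed interferon alpha genes among them, where a count of 0 allows up to 3 reads, and none of the 21 passed the filter for testing. Ifng had 1, 0 and 0 reads in TPN, 2, 2 and 2 in starvation and 3, 3 and 3 in sham. The summed TPN over sham ratio, scaled by library totals, was 0.121 with a 95% counting interval of 0.00276 to 0.873. Ifnl2, a lambda interferon, had 0 reads in TPN, 1 in starvation and 8 in sham, and the near-identical Ifnl3 had 0, 0 and 2, so reads may be split between them. Ifng and Ifnl2 reads were thus fewest in TPN, at counts too low for a test across genes. Ifnk had 7 reads in TPN, all in replicate 1, 7 in starvation and 0 in sham. These intervals cover counting error only.

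None of the receptor and signalling genes passed the test for a fall. Of 15 such genes tested, 2 rose and 0 fell in TPN against sham, where 1 rose and 0 fell in starvation. Over all genes tested, 3.48% rose and 5.12% fell in TPN, and 2.55% rose and 1.14% fell in starvation. Ifnar1, a chain of the type I receptor, rose in TPN (80.3, 81.5 and 74.7 CPM) and in starvation (77.2, 79.2 and 89.0 CPM), against 59.4, 53.0 and 59.5 CPM in sham. Its log2 fold changes were 0.46 ± 0.12 in TPN and 0.51 ± 0.12 in starvation (adjusted p = 0.0458 and 0.0488). Ptpn2, a phosphatase that removes phosphate from Jak and Stat proteins, rose in TPN (log2 fold change 0.89, adjusted p = 0.0408).

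The neighbouring steps of the pathway were read from lists chosen apart from the members. Of 43 other interferon-stimulated genes tested, 10 fell and 0 rose in TPN against sham, with a median log2 fold change of -0.33. Of all genes tested, 5.12% fell and 3.48% rose there. The smallest adjusted p values belonged to Slfn2 (-0.98), a regulator of T cell quiescence, Uba7 (-1.45), the enzyme that activates Isg15 for attachment, Ifit1bl1 (-2.31) and Trim30a (-1.13), at 0.0141 to 0.0182. In starvation 3 of the 43 fell, namely Ifit3b (-1.86), Lgals9 (-0.86) and Tgtp2 (-1.27), and 0 rose, against 1.14% and 2.55% of all genes. Uba7 had 36.7, 38.9 and 38.8 CPM in TPN, 78.8, 90.8 and 178 CPM in starvation and 108, 86.4 and 119 CPM in sham. Uba7 was thus low in TPN against both other groups, and in TPN against starvation its log2 fold change was -1.60 ± 0.29 (adjusted p = 0.0148). In that comparison 4 of the 43 were lower, Uba7, Sp100, Pml and Oas1c, and 1, Tgtp2, was higher, against 3.90% and 1.94% of all genes. Of 16 nucleic acid sensing genes tested, 1 fell in TPN and in starvation alike, the sensor Zbp1, at 13.3, 10.01 and 9.68 CPM in TPN, 5.58, 9.70 and 15.3 CPM in starvation and 28.1, 32.2 and 30.5 CPM in sham. Its log2 fold changes against sham were -1.46 ± 0.32 in TPN and -1.58 ± 0.32 in starvation (adjusted p = 0.0259 and 0.0341). Aim2, a sensor of cytosolic DNA, rose in starvation (log2 fold change 1.75, adjusted p = 0.0168).

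Downstream of the peptide pump, 2 of 14 MHC class I genes tested fell in TPN and 0 rose, H2-Q1 (log2 fold change -1.41, adjusted p = 0.0194) and H2-T22 (-0.90, adjusted p = 0.0480), with a list median of -0.64. The classical class I genes H2-K1 and H2-D1 had log2 fold changes of -0.92 and -0.87 and did not pass (adjusted p = 0.162 and 0.109), and neither did B2m at -0.61 (adjusted p = 0.208). In starvation no gene of the list passed, the smallest adjusted p being 0.207. For this list and the next, the shares of all genes that fell were 5.12% in TPN and 1.14% in starvation. Class I genes are close copies of each other, and their reads may be split. Of 8 genes of class I loading and the proteasome activator, 3 fell in TPN: Psme1 (-0.99, adjusted p = 0.0238) and Psme2 (-1.20, adjusted p = 0.0155), the interferon-inducible cap of the proteasome, and Tapbpl (-0.74, adjusted p = 0.0376), a relative of tapasin. In starvation 3 of the 8 fell as well, Psme1 (-0.91, adjusted p = 0.0488) and the chaperones Calr (-1.002, adjusted p = 0.0339) and Pdia3 (-1.03, adjusted p = 0.0141), which fold class I among other proteins. Pdia3 was higher in TPN than in starvation (log2 fold change 0.66, adjusted p = 0.0386).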

How the data were processed

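Jejunal RNA of 9 libraries, 3 each of TPN, starvation and sham, was analysed from the raw counts per gene symbol that the authors deposited. Per the submitters' processing notes, the builds were GRCm38 and mm10 and the tools STAR 2.7.2e, featureCounts 2.0.0, cutadapt 2.9, FastQC 0.11.8 and DESeq2 1.32.0. For strand and multi-mapping the settings were not found in these sources. Another 9 count columns belong to no listed sample and were left unused. Groups came from the labels. No pair of libraries agreed within sampling noise (chi-square per gene 7.74 to 118).

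Counts were fitted with edgeR 4.0.16 in R 4.3.3: filterByExpr (14668 genes kept, 7200 removed), TMM factors, a quasi-likelihood fit of the 3 group means (9 libraries, 6 residual degrees of freedom), contrasts, and Benjamini-Hochberg adjusted p under 0.05 over all genes kept. The SE is the log2 fold change divided by the square root of F. The steps were tested on simulated data. Gene positions are from GENCODE M21 (GRCm38, 1-based). One read was worth 0.0828 to 0.129 CPM, and counting intervals cover counting error only, since PCR copies were not marked by molecular identifiers.

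The members and lists were chosen with earlier results of these data known. Per-library values are given for members called in any comparison and for the best expressed member of each role; of the larger pathway lists, the 4 called genes with the smallest adjusted p were eligible. Alternatives were DESeq2 1.42.0, limma voom 3.58.1, other scaling and filters, fits of 2 groups, a replicate block, an adjusted p under 0.01, smooth muscle markers as a covariate, each library left out, and sham replicate 2 and starvation replicate 3 both left out. A villus tip covariate was added after seeing the data.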

Additional observations from a re-analysis of the deposited data

How the results depend on the processing

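After removal of group means, same-numbered libraries of different groups correlated at -0.295 to 0.396 and differently numbered ones at -0.570 to 0.483. No pairing by number was seen, but 3 libraries per group are too few to settle it. The replicate block is given here only. Rises stayed at 0 in both comparisons with sham under every alternative run. Percentages in parentheses here are the shares of all genes in the same fit that passed in the same direction. In TPN against starvation the balance of 3 higher to 1 lower turned to 1 higher (1.70%) to 5 lower (5.57%) without starvation replicate 1. Without starvation replicate 2 it was 1 lower (2.14%) to 0 higher (0.957%). For genes that fell in TPN against sham (14), the count was 28 in a fit of only the 2 groups and also without sham replicate 2 and starvation replicate 3, 9 with the replicate block, 2 at an adjusted p under 0.01, 4 with the smooth muscle covariate, and 2 to 28 with a single library left out. Genes that fell in starvation against sham (5) numbered 9 by DESeq2 (3.35%), 0 in the 2-group fit (0%) and 3 with the block (0.157%). They numbered 31 without both libraries (9.0%) and 0 at the stricter threshold (0.0614%). With the smooth muscle and villus tip covariates they numbered 3 and 23 (0.607% and 7.74%), and with a library left out 0 to 27 (0.0669% to 5.35%). In TPN against starvation, genes that were lower (1) numbered 0 with library totals (2.93%), 2 by DESeq2 (5.76%) and 3 without both libraries (11.5%). They numbered 0 at the stricter threshold (0.695%), 3 with the villus tip covariate (6.01%) and 0 to 5 with a library left out (0.543% to 5.57%). Those that were higher (3) numbered 1 with RLE factors (1.91%), by limma voom (2.05%) and with the block (0.907%), and 8 without both libraries (10.1%). They numbered 0 at the stricter threshold (0.286%), 5 with the villus tip covariate (4.09%) and 0 to 3 with a library left out (0.288% to 3.23%). The causes were not tested.

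Scaling by library totals alone shifted the median of all genes by 0.19 in TPN against sham and gave a median of -0.68 for the interferon gamma genes there, and -0.24 in TPN against starvation. In starvation against sham the type I median ran from -1.19 to -0.44 and the interferon gamma median from -0.80 to -0.42 with a library left out, and the interferon gamma median stood at -0.83 without both libraries. In TPN against starvation the type I median reversed to 0.25 without both libraries and 0.27 with the villus tip covariate, and ran from -0.53 to 0.26 with a library left out; the interferon gamma median was -0.20 without both and ran from -0.50 to -0.19.

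Signs of single genes that did not pass reversed as follows. In TPN against sham, Bst2 came to 0.083 with library totals, 0.20 without both libraries, 0.39 and 0.13 with the smooth muscle and villus tip covariates, and -0.38 to 0.17 with a library left out; Parp14 came to -0.08 without both, -0.10 with the smooth muscle covariate and -0.12 to 0.12 with a library left out. In starvation against sham, Tapbp came to 0.029 with the smooth muscle covariate and ran from -0.46 to 0.15 with a library left out, Ifih1 from -0.73 to 0.025 and Parp14 from -0.47 to 0.14, with -0.58 without both. In TPN against starvation, Isg15 came to 0.68 without both, 0.85 with the villus tip covariate and -0.98 to 0.69 with a library left out, and Psmb10 to 0.04 without both and -0.53 to 0.050. Depth left the interferon ligands below the filter for testing.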

Other observations

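Over the 9 libraries, the genes outside the 38 whose log2 CPM followed the mean of the type I genes most closely were Ces2c, Erich4, Lamtor2, Cox6a1 and Bak1, and those that followed the mean of the interferon gamma genes most closely were Eno1, Ndufv1, Insig1, Znfx1 and 4931406C07Rik. The first group includes a carboxylesterase of the intestine (Ces2c), and the second a glycolytic enzyme (Eno1) and a regulator of sterol synthesis (Insig1). Znfx1 is known as an interferon-stimulated gene. The ranking, by correlation, was chosen for closeness and shares its libraries and their differences in cell type markers with the members, so it is a description.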
